A study of Drosophila melanogaster and Nicrophorus vespilloides with 16 samples.

Results

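The genes described here encode proteins of fly heterochromatin, the compact chromatin around centromeres and on much of chromosome 4. The 9 genes are HP1a, HP1b, HP1c, Su(var)3-7, Su(var)2-HP2, Su(var)3-9, egg, G9a and Pof. Su(var)205's product is HP1a, the founding member of the HP1 family, and the gene is called HP1a here, a synonym that the gene table lists. The genes were chosen by name, and all 9 matched a symbol among 13922 protein-coding genes on 6 chromosome arms of the RefSeq table for Drosophila melanogaster (Release 6 plus ISO1 MT). What was measured is not heterochromatin itself but H3K4me3, trimethylation of lysine 4 of histone H3, at the genes that encode these proteins. That mark is laid down at the starts of genes in use.

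Chromatin immunoprecipitation with sequencing was carried out on 4 replicates of whole third-instar larvae of the Oregon-R strain, with 30 larvae pooled in each replicate. Chromatin was bound on a solid-state filter (Chromatrap), and the study was set up to adapt that procedure to insects. Brains of the burying beetle Nicrophorus vespilloides were also assayed, and neither the beetle lists nor the input libraries of either species were used here. Each fly replicate has 1 list of peak summits, the positions of highest enrichment within called peaks, with a score for each. Larvae of all tissues were pooled, so a weak summit in many cells and a strong summit in few cells cannot be told apart.

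In the fly, methylation of lysine 9 of histone H3 marks heterochromatin. It is written by the methyltransferases Su(var)3-9, egg (the fly SETDB1) and G9a, and it is bound by HP1 proteins through their chromodomain. Mutations in the genes of HP1a, Su(var)3-7 and Su(var)3-9 suppress position-effect variegation, the patchy silencing of a gene placed next to heterochromatin.

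The 4 lists held 3518, 4969, 5236 and 5313 summits in replicates 1 to 4, with median scores of 5.97, 8.83, 15.2 and 24.7. Read depth is unknown. Scores rise with depth, so each one was turned into a percentile among the summits of its own replicate, and a gene without a summit in a replicate was given 0. All percentiles below are of this kind. Genes were searched over their whole length and 1 kb beyond either end.

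All 9 genes had a summit inside the gene or within 1 kb of it in all 4 replicates. Over all protein-coding genes the share was 34.6% in all 4 replicates and 44.9% in at least 3. The median of the mean percentile was 68.5 over the 9 genes, against 2.0 over all genes and 59.9 over the 6250 genes with a summit in at least 3 replicates. By replicate, the median percentile of the 9 genes was 91.5, 56.6, 83.4 and 78.3 in replicates 1 to 4, against 48.8, 63.5, 66.4 and 67.0 for those 6250 genes, so that in replicate 2 the 9 genes had the lower median. These counts and medians are given without a test, because the genes were chosen by name and share no sampling.

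Much of that signal lay outside the genes themselves. A summit inside the gene was found in at least 3 replicates for 6 of the 9 genes, against 32.7% of all genes. The median of the mean percentile inside the gene was 50.8 over the 9 genes, against 0 over all genes. It was 50.4 over the 4546 genes with a summit inside in at least 3 replicates. The 9 include genes without such a call, and the 4546 do not. The 6 were HP1a, HP1b, HP1c, Su(var)3-7, Su(var)2-HP2 and egg. G9a and Pof had a summit inside the gene in 2 replicates, and Su(var)3-9 in 1. The same 6 genes were left when a summit counted only for the gene whose end lies nearest, against 31.1% of all genes. The strongest summit lay inside the gene in 16 of 36 combinations of gene and replicate, or 44.4%, against 55.5% for all genes with a summit in at least 3 replicates.

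**Figure D1:**
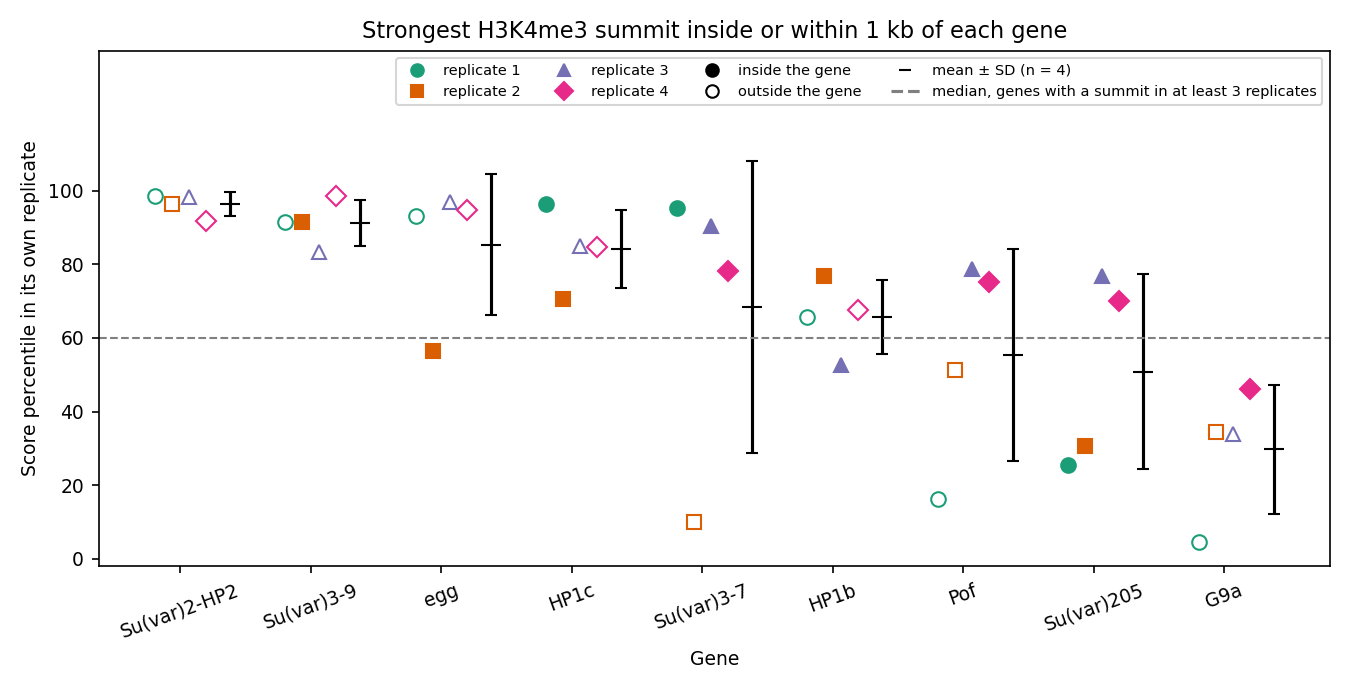
Score percentile (vertical axis) of the strongest summit inside or within 1 kb of each gene, with genes ordered by mean. Each marker is 1 replicate, filled where the summit lies inside the gene and open where it lies outside, and black bars are the mean ± SD (n = 4), which can pass 100. The markers of Su(var)2-HP2 are all open and above 91, Su(var)205's (HP1a) are all filled, and G9a has the lowest mean.

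HP1a (Dmel_CG8409) lies on chromosome 2L, from 8209626 to 8211122. Its summits inside the gene were at 8210942, 8210895, 8210923 and 8210928 in replicates 1 to 4, all within 47 bp of each other and 180 to 227 bp from the upper end of the gene. The percentiles were 25.5, 30.7, 77.0 and 70.1 in replicates 1 to 4, a mean of 50.8 ± 26.5 (SD, n = 4). Replicates 3 and 4 were thus well above replicates 1 and 2. In all 4 replicates this was the strongest summit of the search window. The single summit outside, in replicate 3, lay in Ssb-c31a, 472 bp beyond the end, with a percentile of 28.8. Inside minus outside was 43.6 ± 20.1 (SD, n = 4). The outside value was 0, for no summit, in replicates 1, 2 and 4, where the difference could only be positive, so no test of it is given.

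HP1b (Dmel_CG7041) encodes another HP1 protein, found in both euchromatin and heterochromatin, and lies on X, from 9081063 to 9082746. Its own summits fell at 2 places 171 bp apart at most. They were at 9081609 and 9081607 in replicates 1 and 2, and at 9081438 and 9081447 in replicates 3 and 4. The percentiles inside were 24.0, 76.9, 52.6 and 53.8 in replicates 1 to 4, a mean of 51.8 ± 21.6 (SD, n = 4). The strongest summit within 1 kb outside stood at 65.7, 27.3, 25.9 and 67.6, a mean of 46.6 ± 23.1. The highest values alternated between the gene and its flanks, with the gene ahead in replicates 2 and 3 and the flank ahead in replicates 1 and 4. The strongest outside summits of replicates 1 and 4 lay in APC4, which encodes a subunit of the anaphase-promoting complex and begins 184 bp away. Those of replicates 2 and 3 lay in CG7246, 5 bp away. Only the strongest summit changed gene, as APC4 held a summit in all 4 replicates and CG7246 in replicates 1, 2 and 3.

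HP1c (Dmel_CG6990), an HP1 protein found mainly in euchromatin, lies on 3R, from 22745620 to 22746605. With 986 bp it was the shortest of the 9 genes, and its own summits had the highest mean percentile, 73.4 ± 17.01 (SD, n = 4). They were at 22745826, 22745808, 22745930 and 22745837 in replicates 1 to 4, with percentiles of 96.3, 70.6, 55.1 and 71.8. Of the inside-called genes over the whole genome, 85.3% had a lower mean. CG17141, which overlaps the end of HP1c by 160 bp, held a second site at 94.0, 61.5, 85.0 and 84.7 in replicates 1 to 4, 778 to 865 bp beyond that end. Inside minus outside was −7.87 ± 17.3 (SD, n = 4), so the sites did not differ beyond their spread (exact permutation p = 0.5).

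**Figure D2:**
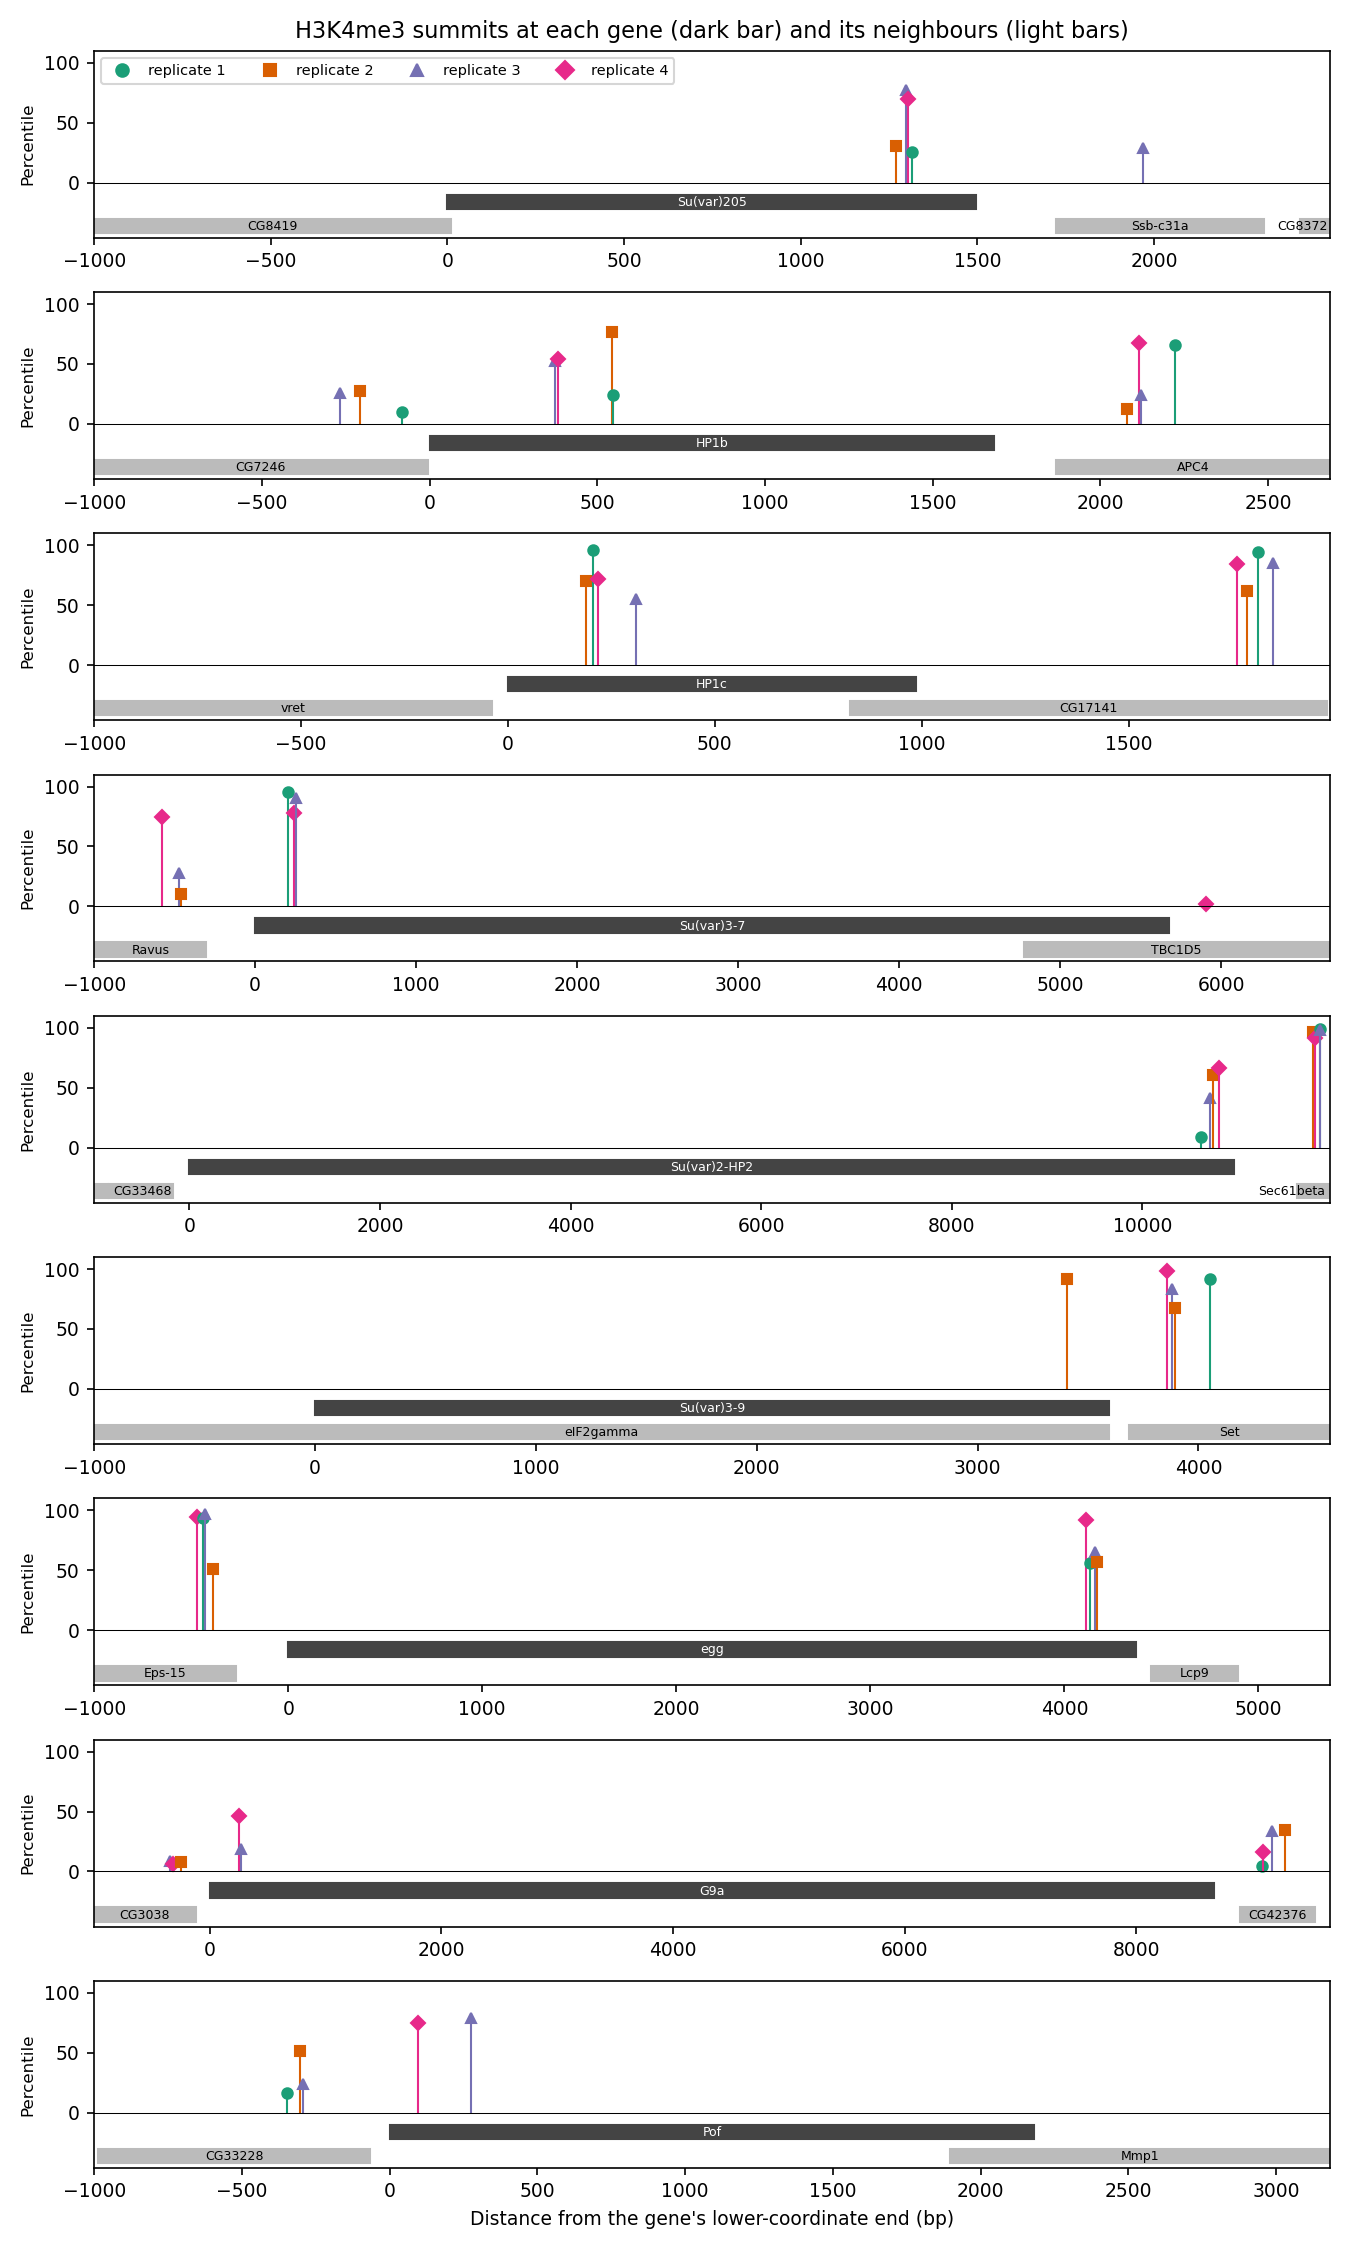
Summits at each gene, as distance in bp from the gene's lower-coordinate end (horizontal axis) and score percentile (vertical axis), 1 marker per summit and replicate. Dark bars are the genes and light bars their neighbours, cut at 1 kb. Summits inside a gene stand at 1 of its ends only, and the other groups of summits lie over neighbours.

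Su(var)3-7 and Su(var)2-HP2 encode partners that bind HP1a. Su(var)3-7 (Dmel_CG8599), a zinc-finger protein, lies on 3R, from 13264364 to 13270038. A site inside its lower end, at a median distance of 244 bp, had percentiles of 95.3, 90.4 and 78.3 in replicates 1, 3 and 4, with positions within 48 bp of each other. Replicate 2 had no summit there. This split gave the largest SD of the 9 strongest-summit means, 68.5 ± 39.6 (SD, n = 4), and in replicate 2 the value rested on a summit at 10.1 in the neighbour Ravus. Ravus, 302 bp away, had summits in replicates 2, 3 and 4 at 10.1, 27.5 and 74.9, and none in replicate 1.

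Su(var)2-HP2 (Dmel_CG12864) was the longest of the 9 genes, with 10965 bp on 2R from 14607154 to 14618118. Its strongest-summit mean of 96.3 ± 3.23 (SD, n = 4) was the highest of the 9 and above that of 99.2% of the genes with a summit in at least 3 replicates. That value belonged in every replicate to a site inside Sec61beta, a subunit of the channel that moves proteins into the endoplasmic reticulum, 826 to 897 bp beyond the end of Su(var)2-HP2. The percentiles of the site in Sec61beta were 98.6, 96.5, 98.4 and 91.7 in replicates 1 to 4. The gene's own summits, 161 to 351 bp inside the same end, had 9.03, 60.8, 41.1 and 66.3, a mean of 44.3 ± 25.9. Inside minus outside was −52.0 ± 28.4 (SD, n = 4), lower inside in 4 of 4 replicates (an exact permutation p, two-sided, at the smallest value that 4 paired replicates allow, which is above 0.05). A window of 500 bp in place of 1 kb gave 44.3, because it no longer reached Sec61beta.

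The 3 genes of H3K9 methyltransferases differed in the number of replicates with a summit inside the gene. It was 1 for Su(var)3-9, 4 for egg and 2 for G9a. Su(var)3-9 (Dmel_CG43664) lies on 3R, from 15259864 to 15263458, wholly within the span of eIF2gamma, a subunit of translation initiation factor eIF2, and both genes end at the same upper position. A summit inside Su(var)3-9 was present in replicate 2 only, at 15263269, 189 bp from that end, with a score of 16.0 and a percentile of 91.5. It cannot be assigned to either of the overlapping genes. In replicates 1 to 4 a site inside Set, a histone chaperone gene 93 bp away, had percentiles of 91.5, 67.7, 83.4 and 98.5, a mean of 85.3 ± 13.2 (SD, n = 4). The inside mean was 22.9 ± 45.7 and rested on replicate 2, as the other 3 replicates had 0. Inside minus outside was −62.4 ± 57.8, given with no test because the inside value was 0 in those 3 replicates.

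The gene egg (Dmel_CG12196) lies on 2R, from 24775534 to 24779901, and its product needs the cofactor windei. It had well separated sites in all 4 replicates, 1 inside the gene and 1 in the neighbour Eps-15, an endocytosis gene 268 bp beyond the other end. The inside summits were at 24779667, 24779700, 24779693 and 24779648 in replicates 1 to 4, all within 52 bp. Their percentiles were 56.1, 56.6, 65.2 and 91.8, a mean of 67.4 ± 16.8 (SD, n = 4). The site in Eps-15 had 93.2, 50.7, 96.8 and 94.6, a mean of 83.8 ± 22.1. Replicate 2 was the lowest there and the only replicate in which the gene's own site was the higher. Inside minus outside was −16.4 ± 21.1, within its spread (exact permutation p = 0.375).

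G9a (Dmel_CG2995) lies on X, from 245978 to 254650, and had the lowest mean of the 9 genes. Its strongest summits stood at 4.70, 34.4, 33.8 and 46.1 in replicates 1 to 4, a mean of 29.7 ± 17.6 (SD, n = 4). Of the genes with a summit in at least 3 replicates, 9.81% had a lower mean. Summits inside the gene were found in replicates 3 and 4, at 246245 and 246227, with percentiles of 18.9 and 46.1, and none in replicates 1 and 2. CG42376, 225 bp away at the other end, held a summit in all 4 replicates at 4.70, 34.4, 33.8 and 16.4. CG3038, 121 bp beyond the lower end, held a summit in replicates 2, 3 and 4 at 7.64, 8.55 and 6.10. With the same number of summits taken from every list, the strongest-summit mean of G9a was 8.02. That setting drops the weakest summits of the longer lists and ranks the rest anew, so a percentile can only fall or stay. The lower means of all 9 genes, among them HP1b from 65.7 to 53.4 and HP1a from 50.8 to 37.0, therefore follow from the setting.

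Pof (Dmel_CG3691) encodes a protein that binds the genes of chromosome 4, and lies on 2R, from 24669397 to 24671577. Its own summits were at 24669671 and 24669493 in replicates 3 and 4, with percentiles of 78.6 and 75.2. Replicates 1 and 2 had none inside the gene. In the neighbour CG33228, 66 bp away, replicates 1, 2 and 3 had summits at 16.2, 51.3 and 24.0, and replicate 4 had none. The strongest-summit mean was 55.3 ± 28.8 (SD, n = 4), and inside minus outside was 15.5 ± 59.3. In each replicate but the third 1 of the 2 sides was 0, so no test is given.

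**Figure D3:**
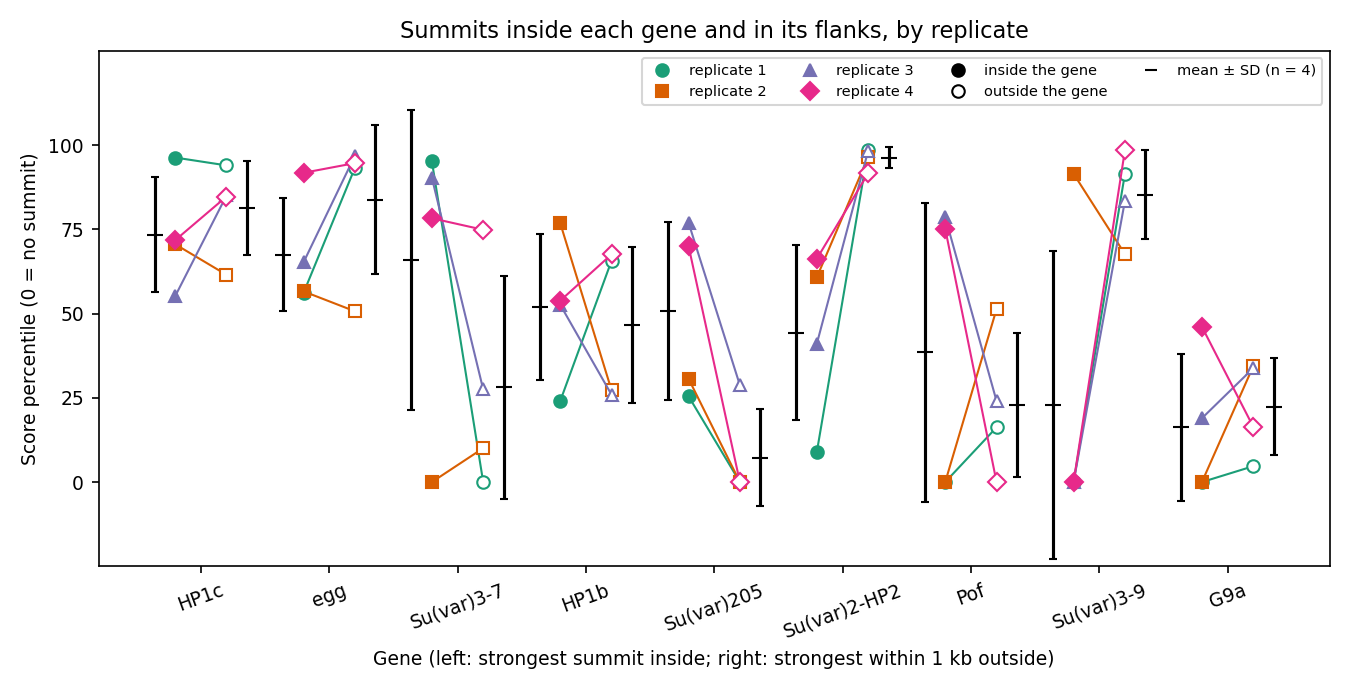
Score percentile (vertical axis, 0 where no summit was called) of the strongest summit inside each gene (left, filled) and within 1 kb outside it (right, open), lines joining the values of 1 replicate and black bars giving the mean ± SD (n = 4). Su(var)205's values (HP1a) are higher inside in 4 of 4 replicates, with a summit outside in 1 of them, those of Su(var)2-HP2 are higher outside in 4 of 4, and the other genes are mixed.

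Ordered by the strongest summit, the means ran from Su(var)2-HP2 (96.3) through Su(var)3-9 (91.2), egg (85.3), HP1c (84.2), Su(var)3-7 (68.5), HP1b (65.7), Pof (55.3) and HP1a (50.8) to G9a (29.7). Of the 8 pairs of neighbours in this order, only HP1a and G9a differed by more than the SD of their difference, 21.1 ± 19.2 (SD, n = 4). By summits inside the gene the order was HP1c (73.4), egg (67.4), Su(var)3-7 (66.0), HP1b (51.8), HP1a (50.8), Su(var)2-HP2 (44.3), Pof (38.5), Su(var)3-9 (22.9) and G9a (16.3). No pair of neighbours in that order differed by more than its SD. With 4 paired replicates the exact permutation test, two-sided, cannot reach 0.05, so none of these comparisons could pass it. No adjusted p over the 8 pairs or the 9 genes was below 0.562. The adjustment over the 9 genes counted HP1a, Su(var)3-9 and Pof, for which no test is given, so nothing is read from it.

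The positions of the summits were set beside those of all genes. Joining summits at most 250 bp apart gave 21 sites at the 9 genes, of which 11 were found in 4 replicates, 5 in 3, 2 in 2 and 3 in 1. Each of the 11 held 1 summit per replicate, and over all arms 2367 of 7030 sites did so. The 11 sites in 4 replicates spanned 47 to 198 bp, with a median of 122 bp, against 108 bp for those 2367 sites. Each of the 9 genes had 1 site inside it, whose median distance from the nearest gene end was 185 to 464 bp, with a median of 221 bp. Over all summits lying inside the gene of the nearest end, that median was 217 bp. Of the 6 genes called inside, 6 had 1 site inside, and 79.3% of all 4546 such genes did. Strand is not in the gene table used here, so starts and 3' ends were not told apart.

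Each of the 21 sites had 2 or more genes within 1 kb. No such share over all sites is given here, and each of the 21 was picked for lying within 1 kb of a listed gene. A neighbouring gene overlapped 5 of the 9 genes, or 55.6%, against 41.4% of all genes, and all 9 had another gene within 1 kb, against 87.6% of all genes. The 9 genes had a median length of 3595 bp, against 2163 bp for all genes. A longer gene offers more sequence to a search of its whole length, and the part of length in the counts was not tested.

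The genes whose 4 percentiles came closest to those of HP1a, by Euclidean distance over the 4 replicates, were Ttc7 (distance 8.50), Catsup (8.68), Mrp5 (9.04), CG4686 (9.53) and RanBPM (14.1). Ttc7 had 25.98, 23.6, 75.3 and 74.4 in replicates 1 to 4. Mrp5 and CG4686 had the same values in replicates 1, 3 and 4, at 31.8, 78.9 and 72.2. Both lie on 3R, and the same summits may have been counted for both, so they are not taken as separate likenesses. The genes were picked for this likeness, which rests on 4 libraries only.

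Other genes of heterochromatin and of position-effect variegation gave a wider view of the pathway. Of 42 entries listed, 39 were distinct matched genes, and Hip and Su(var)3-10 were not matched. A summit inside or within 1 kb in at least 3 replicates was found for 29 of the 39 genes, or 74.4%, against 44.9% of all genes, and a summit inside the gene for 22, against 32.7% of all genes. The median of the mean percentile over the 39 genes was 41.9, against 2.0 over all genes. With equal numbers of summits per replicate, 19 of the 39 had a summit in at least 3 replicates, against 37.4% of all genes.

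The list holds 4 other members of the HP1 family. Of these 4 genes, HP1e, rhi, HP6 and HP1D3csd, none had a summit in any replicate. Over all genes, 48.4% had a summit in at least 2 replicates, which is another threshold. The share of all genes without a summit in any replicate is not given here. In any case, 4 genes are too few to set beside such a share. The gene rhi encodes Rhino, the HP1 protein that marks piRNA clusters in the germline of the fly ovary, and HP1e acts in the male germline. Both tissues are a small part of a larva, and expression was not analysed here, so the absence of a summit does not show that these genes were silent in their own cells. HP1a, HP1b and HP1c each had a summit inside the gene in 4 of 4 replicates, as did 19.98% of all genes. HP1a, HP1b and HP1c are likewise too few to set beside that share, and their contrast with the other HP1 genes was not tested.

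Of the 35 other genes, 29 had a summit in at least 3 replicates, or 82.9%, against 44.9% of all genes. The median of the mean percentile over the 35 genes was 43.0, against 2.0 over all genes and 59.9 over those with a summit in at least 3 replicates. A summit in all 4 replicates was found for 20 of the 35, against 34.6% of all genes. These were HP4, HP5, ADD1, XNP, Lhr, Su(z)12, sov, Odj, BEAF-32, Incenp, cav, Kdm4B, Su(var)2-10, HDAC1, Mi-2, E(var)3-9, NSD, Set2, ash1 and Nurf-38. The highest mean was that of NSD, a methyltransferase of lysine 36 of histone H3, at 89.9 ± 8.50 (SD, n = 4). Of those with a summit in at least 3 replicates, the lowest was Kdm4A, a demethylase that binds HP1a, at 25.9 ± 19.9. The gene wde (windei), the cofactor of egg, was chosen after its values were seen. It had a summit within 1 kb in replicates 3 and 4, none inside the gene, and a mean of 27.9 ± 35.2.

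**Figure D4:**
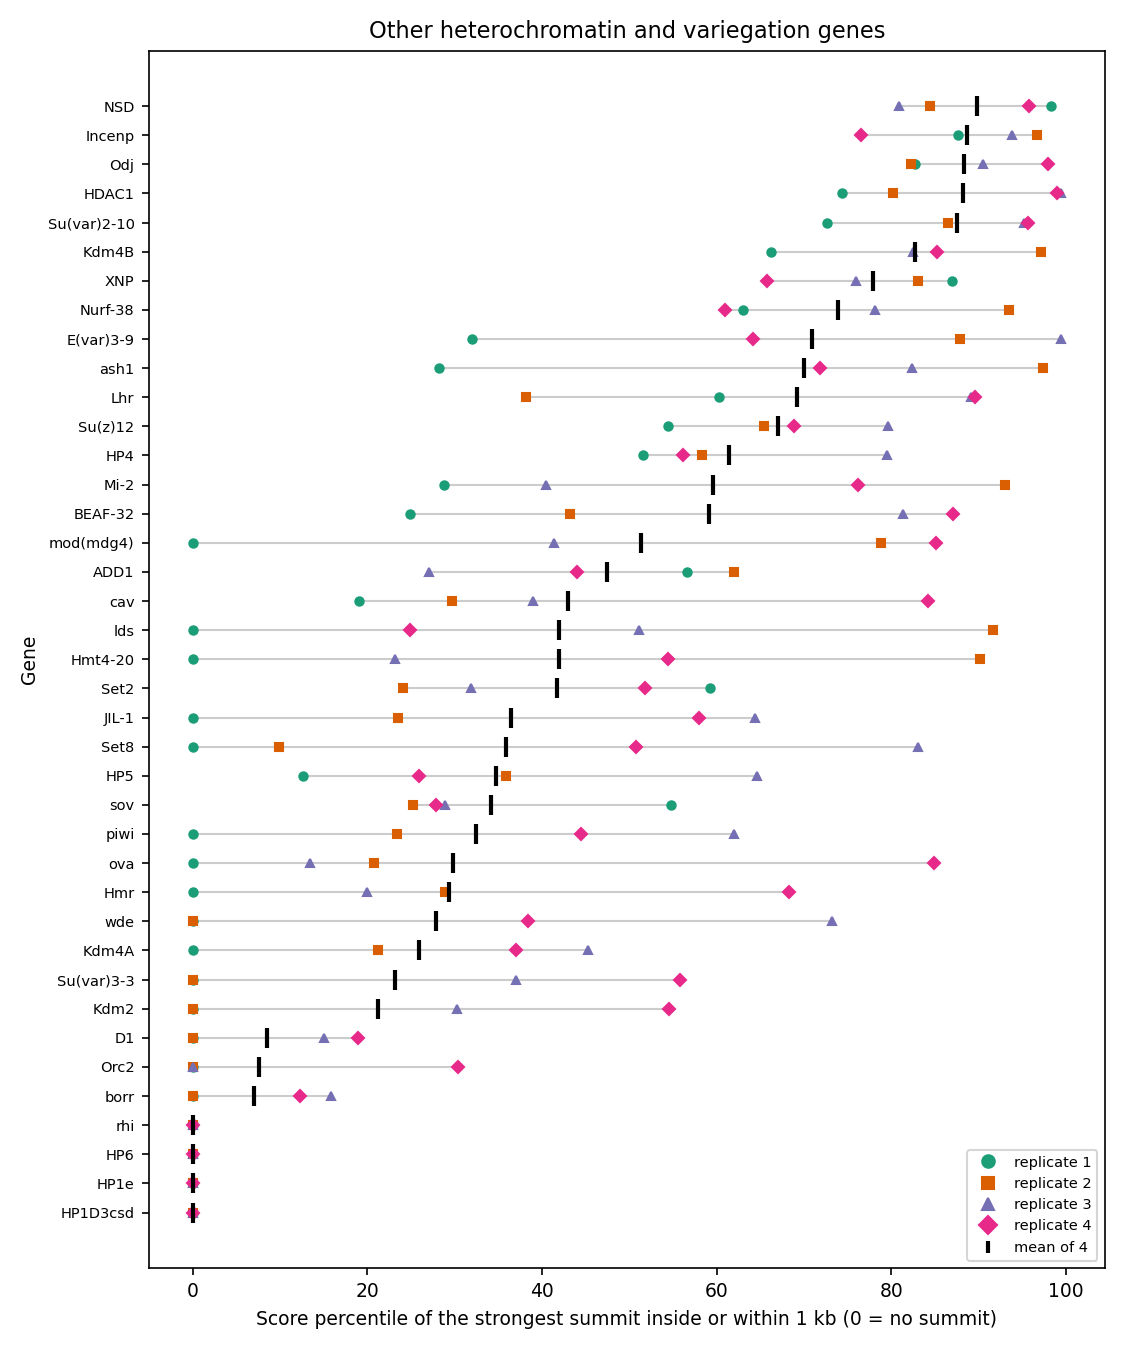
Score percentile (horizontal axis, 0 where no summit was called) of the strongest summit inside or within 1 kb of each of 39 other heterochromatin and variegation genes, 1 marker per replicate, with a black tick at the mean of 4. HP1e, rhi, HP6 and HP1D3csd stand at 0 in all 4 replicates, and NSD has the highest mean, 89.9.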

How the data were processed

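H3K4me3 ChIP-seq summits of 4 fly larval libraries were analysed, 1 list per replicate, not pooled. Per the submitters' processing notes, read quality was checked with FastQC 0.11.7. The same notes name cutadapt 1.16 and BWA 0.7.17, and also SAMtools 1.9, with Picard 2.17.11, besides MACS2. Neither the settings and version of MACS2 nor the genome build or the role of the input is stated in the sources used here. Each deposited score is a −log10 value as MACS2 writes it, of either a p-value or a q-value. The lowest score per list was 1.31 to 1.36, and a threshold of 0.05 corresponds to 1.30. Depth is unknown, so no counting interval was computed.

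Summits on each arm were matched to the RefSeq genes of that arm. Of the summits, 57.1% to 88.0% lay within 500 bp of a gene end of their own arm, against at most 19.6% with any other arm's genes. Positions are 1-based. A gene's value was its highest-scoring summit inside the gene or within 1 kb, as a percentile of its replicate. Differences between genes or sites were compared by exact permutation tests (sign flips over 4 replicates, two-sided, Benjamini-Hochberg adjusted). No library shared a summit of the same position and score with another.

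The members and gene lists were chosen with earlier results of these data known. Named genes are the 9 members, genes holding or within 1 kb of their summits, the listed heterochromatin genes with a summit in all 4 replicates or none, the highest and lowest of those in at least 3, and the 5 genes most like HP1a. The gene wde falls outside this rule and was chosen after its values were seen. The search was tested on simulated summits. Scripts ran in Python 3.11.15 with pandas 2.3.3, numpy 2.4.6, matplotlib 3.10.9 and scipy 1.17.1. Start sequences were not used here, so motifs were not searched.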

Additional observations from a re-analysis of the deposited data

Results flagged for a closer look

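Of 21 groups of 4 replicate values examined (percentiles, summit positions and list lengths), 1 held a value far from the others. The strongest summit at egg had a percentile of 56.6 in replicate 2, against 93.2, 96.8 and 94.6 in replicates 1, 3 and 4, a gap past Dixon's 95% critical value. Chance flags about 1 group in 20. In replicate 2 the strongest summit was the one inside egg, and in the other 3 replicates it was the one in Eps-15.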

How the results depend on the processing

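All 9 genes kept a summit in at least 3 replicates with scores of at least 5, equal list lengths, windows of 500 bp or 2 kb, gene ends only, a summit in all 4 replicates, or any replicate left out (2 of the other 3 were then asked for). The number was 7 with a window of 250 bp and 6 inside the gene. Over all genes the share was 33.9% with 250 bp, 39.0% with 500 bp, 49.8% with 2 kb and 32.7% inside the gene. It was 42.2% with scores of at least 5, 37.4% with equal list lengths and 43.9% with gene ends only. A summit in all 4 replicates was found for 34.6%, and the share was 45.2% to 48.1% with 1 replicate left out. The median over the 9 genes was 50.8 inside the gene, with the nearest end only or with 250 bp, and 84.2 with 2 kb. It ran from 65.2 to 88.0 with 1 replicate left out, highest without replicate 2. The number of the 9 genes called inside was 8 when 2 of all 4 replicates were asked for, against 38.6% of all genes. With 1 replicate left out, it was 6 to 8 when 2 of the other 3 were asked for. It was 5 to 6 when all 3 were, and no share of all genes is given for these. The number called inside, and the 29 other heterochromatin genes (19 with equal list lengths), were tried under these alternatives after seeing the data. Of 108 alternative means of single genes, 91 moved by less than 1 SD and 17 by more. The 108 include means with 1 replicate left out. Leaving out 1 of 4 values cannot move a mean by 1 SD, so nothing is read from those. A mean over replicates with a summit could not differ, as all 9 genes had a summit in all 4. No paired analysis was possible because, between groups of samples, only 1 group was analysed, while genes and sites were compared within replicates. The percentiles rest on lists of unequal length, and unknown depth limits any reading of a missing summit.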
